A study of Mus musculus with 5 samples.

Results

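The genes described here encode the machinery of oxidative phosphorylation (OXPHOS), in KL cells of mice with and without an intact Bcor gene. Members were the protein-coding genes whose symbols begin with Nduf followed by a, b, c, s or v, with Uqc, with Cox4 to Cox8 or with Atp5, together with Sdha, Sdhb, Sdhc, Sdhd and the mitochondrially encoded mt-Nd, mt-Co, mt-Cytb and mt-Atp genes. The rule used symbols alone and no measured value. It found 109 of the 52550 genes in the count table, of which 96 lie in the nuclear genome and 13 in mitochondrial DNA.

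OXPHOS is the last stage of respiration, in which electrons from nutrients pass through complexes I to IV of the inner mitochondrial membrane to oxygen, and the proton gradient built on the way drives ATP synthase, complex V. Complexes I, III, IV and V are assembled from subunits of both genomes, whereas complex II (succinate dehydrogenase) is wholly nuclear encoded and also works in the TCA cycle. In bone marrow, long-term stem cells are known to lean on glycolysis, and committed progenitors on mitochondrial respiration.

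The study asked how loss of Bcor, a subunit of a Polycomb repressive complex, changes myeloid progenitors. RNA came from sorted Lin-cKit+Sca1- (KL) bone marrow cells, the compartment of committed myeloid progenitors, 20 weeks after tamoxifen. The 3 BcorΔE9-10 libraries were from male mice of genotype scl-Cre-ERT +; Bcorfl/y and the 2 BcorWT libraries from mice of genotype scl-Cre-ERT +; Bcorwt/y, so that the controls carried the Cre transgene as well. Both groups were given tamoxifen, 1 mg a day by intraperitoneal injection on 5 days running, at 3 to 6 months of age. Per the study's methods the transgene drives recombination in haematopoietic stem cells, and removal of exons 9 and 10 shifts the reading frame.

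The libraries were made with QuantSeq, which reads the 3′ end of polyadenylated transcripts, and held 5998924 to 8303999 counts each. Bcor itself, on chromosome X, had 196, 168 and 185 counts in BcorΔE9-10 libraries 1 to 3 and 83 and 109 in BcorWT libraries 1 and 2, higher in BcorΔE9-10 by 0.78 in log2 (SE 0.218, limma adjusted p = 0.0313). Reads of the transcript end do not cover exons 9 and 10, so this count does not check the deletion. Kit, the gate's positive marker, was detected in every library and was higher in BcorΔE9-10 (51.0 ± 2.14 against 18.9 ± 0.977 CPM, SD, n = 3 and 2, log2 fold change 1.43, limma adjusted p = 9.82e-05), while Ly6a, which encodes Sca-1, had 3 to 8 counts. The labels do not say whether libraries were separate mice, so p-values measure the spread between these libraries.

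The mitochondrially encoded members could not be measured. All 13, which encode 7 subunits of complex I (mt-Nd1 to mt-Nd6 and mt-Nd4l), cytochrome b of complex III (mt-Cytb), 3 subunits of complex IV (mt-Co1, mt-Co2, mt-Co3) and 2 of complex V (mt-Atp6, mt-Atp8), were listed at 0 counts in every library. So were all 37 genes of the mitochondrial chromosome, the ribosomal RNAs included, which every nucleated blood cell transcribes. A count of 0 allows up to 3 counts, or 3.61e-05% to 5e-05% of a library, by counting error only. Because genes that all cells use were at 0, these zeros are reported as listed values and not as levels.

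Sequence nearly identical to 6 of these genes is also present in the nuclear genome, in a block of unprocessed pseudogenes on chromosome 1, and these did receive counts. For each member, the 30-base words of its last 300 bases were looked up in all other annotated transcripts, and 98.9% or more of those words of mt-Nd3, mt-Nd4l, mt-Co1, mt-Co2, mt-Co3 and mt-Atp6 were found in one pseudogene each. The last 60 bases of the identical run are shown for 2 of the pairs, because a read of such a stretch has the same letters in both genomes. They come from the GENCODE M21 transcripts (GRCm38.p6), at chrM:9744-9803 and chrM:7634-7693, on the plus strand, and lie inside the coding sequence. The identical runs were 342 bases long for mt-Nd3 and its copy Gm28438 (chr1:24612775-24613119) and 681 bases long for mt-Co2 and its copy Gm28661 (chr1:24614885-24615565).
mt-Nd3 and Gm28438: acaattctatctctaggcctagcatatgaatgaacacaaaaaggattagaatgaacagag
mt-Co2 and Gm28661: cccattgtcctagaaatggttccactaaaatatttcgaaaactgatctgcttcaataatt

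The counts on these copies differed between the groups for 4 of 6, all higher in BcorΔE9-10, where 10.1% of all genes tested were called and 6.02% called higher. Gm28438, which holds the mt-Nd3 sequence, had 2643, 2231 and 2392 counts in BcorΔE9-10 libraries 1 to 3 against 972 and 1160 in BcorWT libraries 1 and 2. The groups did not overlap in CPM (counts per 1000000, scaled by TMM), at 319 ± 42.6 against 155 ± 23.9 (SD, n = 3 and 2), and the change in log2 was 1.04 (SE 0.133, limma adjusted p = 0.000164). This call held in every alternative in which it was recomputed, with log2 fold changes from 0.86 to 1.20.

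The fold changes of the copies of mt-Co2, mt-Atp6 and mt-Co1 were smaller, though their rows held more counts. Gm28661, with the mt-Co2 sequence, had 1660 ± 71.5 against 1280 ± 79.6 CPM, a change of 0.37 in log2 (limma adjusted p = 0.0126). Gm10925, with the mt-Atp6 sequence, stood at 1640 ± 175 against 1270 ± 57.1 CPM, also a change of 0.37 in log2 (limma adjusted p = 0.0236). Gm29216, with the mt-Co1 sequence, stood at 1610 ± 115 against 1290 ± 19.3 CPM, a change of 0.32 in log2 (limma adjusted p = 0.0312). The last 2 calls were lost with a correction for GC content (adjusted p = 0.218 and 0.0996), and without BcorWT library 1 all 3 were lost (adjusted p = 0.125 to 0.145). The Gm10925 call was also lost without BcorΔE9-10 library 3 (adjusted p = 0.0624), and the Gm29216 call without BcorΔE9-10 library 2 or 3 or BcorWT library 2 (adjusted p = 0.0532 to 0.122).

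The copies of mt-Co3 and mt-Nd4l were not called in the TMM-scaled fit. Gm28437, the mt-Co3 copy with the most counts of the 6, had 3010 ± 247 against 2760 ± 118 CPM (log2 fold change 0.12, limma adjusted p = 0.406), and it was called with total counts alone (0.26, adjusted p = 0.0341). Gm10222, the mt-Nd4l copy, had 21.9 ± 1.38 against 28.1 ± 0.0795 CPM (log2 fold change -0.36, limma adjusted p = 0.194). Reads of a mitochondrial transcript and of its nuclear copy cannot be told apart in these counts, so the values are of the copies' rows and of neither source alone. The 6 copies were picked by sequence after the zeros had been seen.

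**Figure D1:**
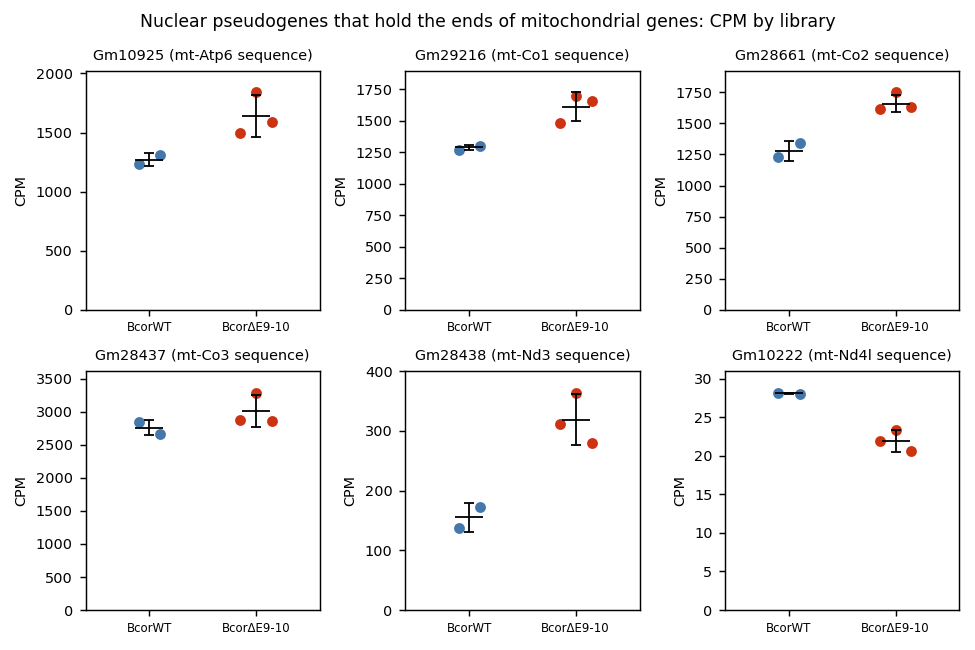
CPM (TMM-scaled) of 6 nuclear pseudogenes in each library, BcorWT in blue (n = 2) and BcorΔE9-10 in red (n = 3), with the group mean and SD in black and each axis starting at 0. Gm28438, the mt-Nd3 copy, at 319 against 155 CPM, has the largest fold change of the 6, and Gm10222 alone has its BcorΔE9-10 libraries below both BcorWT libraries.

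Of the 96 nuclear members, 90 had enough counts to be tested and 7 were called at an adjusted p under 0.05 in limma, 6 higher in BcorΔE9-10 (Ndufa1, Ndufc2, Ndufb3, Sdhd, Cox7c and Atp5j) and 1 lower (Ndufb8). Over all 11766 genes tested 10.1% were called, 6.02% higher and 4.09% lower. The members' share, 7.78%, was near this background, so the count itself is not a result about OXPHOS genes. It became 14 higher and 0 lower with libraries scaled by total counts alone, and 3 higher and 1 lower without BcorWT library 1, where the calls over all genes went from 1189 to 558. Of the 6 members not tested, 5 had no count in any library (Cox4i2, Cox7b2, Cox8b, Cox8c and Ndufa4l2) and Cox7a1 had 1 to 7 counts.

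Most nuclear members lay near no difference. Their median log2 fold change was -0.05, against 0.00 over all genes tested, with 36 above and 54 below 0, but it was 0.096 when libraries were scaled by total counts alone, a setting that moved the median of all genes to 0.149. The log2 fold change was within 0.5 of 0 for 79 of the 90 members (87.8%), compared with 71.8% of all genes. The groups' CPM did not overlap for 46 members (51.1%), 20 higher and 26 lower, beside 42.8% of all genes. Members and all genes were not matched for counts, so neither pair of shares is a result about OXPHOS genes. Summed over the nuclear members, expression was 12900 ± 565 CPM in BcorΔE9-10 and 12700 ± 505 CPM in BcorWT, and as a share of raw counts 1.28%, 1.38% and 1.35% against 1.15% and 1.24%. In bulk RNA such a sum cannot separate fewer cells of a type from less RNA per cell.

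**Figure D2:**
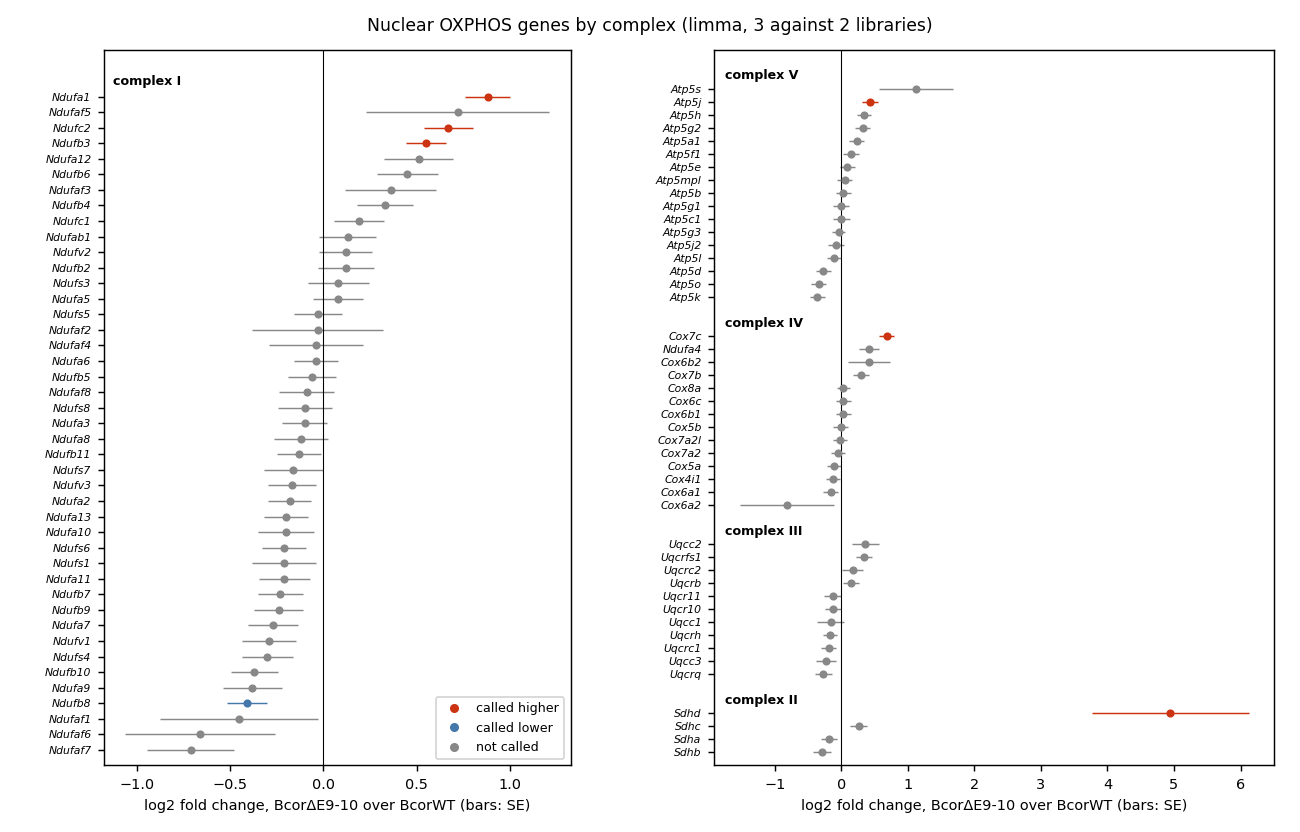
Log2 fold change (BcorΔE9-10 over BcorWT, x axis, bars SE, limma, 3 against 2 libraries) of 89 of the 90 nuclear members tested, complex I on the left and complexes II to V on the right, each panel with its own x axis. The 6 genes called higher are red and Ndufb8, called lower, is blue; Sdhd, at 4.94, stands apart from the other members, which lie between -0.82 and 1.12.

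Complex I (NADH dehydrogenase) is the entry point for electrons from NADH and is built of core subunits, which carry the redox centres and proton pumps, and accessory subunits that assemble and hold them. Among its 44 nuclear members 3 rose, 1 fell and 40 did not pass the test (9.09% called, beside 10.1% of all genes). The median log2 fold change was -0.11. All 4 called genes were among the 29 accessory subunits (13.8% called, beside 10.1% of all genes). The difference between subunit roles was not tested.

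None of the 7 nuclear core subunits passed the test. Their log2 fold changes ran from -0.29 to 0.12, with a median of -0.16. Ndufv1, which binds NADH, gave the lowest value (36.0 ± 1.34 against 44.0 ± 1.02 CPM, log2 fold change -0.29, limma adjusted p = 0.232).

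Ndufa1, an accessory subunit of the membrane arm encoded on the X chromosome (chrX:37187588-37191163, GRCm38), had the smallest adjusted p of all members. Its counts were 1764, 1468 and 1831 in BcorΔE9-10 libraries 1 to 3 and 791 and 858 in BcorWT libraries 1 and 2. Every BcorΔE9-10 library was above both controls, at 208, 240 and 214 CPM against 112 and 127. The log2 fold change came to 0.88 (SE 0.119, limma adjusted p = 0.000249), and no 30-base word of its transcript end occurred in another gene.

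Ndufc2, an accessory subunit of the membrane arm (chr7:97400003-97407802), had 838, 689 and 873 counts against 463 and 440. In CPM the groups were 105 ± 7.03 and 65.5 ± 0.391 (SD, n = 3 and 2) and did not overlap. The log2 fold change was 0.67 (SE 0.129, limma adjusted p = 0.00356), again with no shared words. Ndufa1 and Ndufc2, with Cox7c of complex IV, were called under all 17 alternative settings. Among the 17, leaving mitochondrial genes out of library sizes gave the same values as the fit reported here, because those rows were at 0. That setting is no separate check for any gene.

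Ndufb3, an accessory subunit of the distal membrane arm (chr1:58586384-58595964), held the most counts of complex I. It had 3124, 2208 and 3001 counts in BcorΔE9-10 and 1591 and 1815 in BcorWT, or 369, 360 and 351 CPM against 226 and 269. The groups did not overlap, and the log2 fold change was 0.55 (SE 0.109, limma adjusted p = 0.00435). A pseudogene, Gm45930, shares 25.1% of the words of its end but had 0 to 3 counts, and without BcorWT library 1 the call was lost (adjusted p = 0.0647).

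Ndufb8 (chr19:44548572-44555440), an accessory subunit of the same arm, went the other way. Its counts of 1934, 1309 and 1726 in BcorΔE9-10 and 1983 and 1937 in BcorWT became 229, 214 and 202 CPM against 282 and 287. The groups did not overlap, with a change of -0.41 in log2 (SE 0.106, limma adjusted p = 0.0224). Of its end words 42.4% occur in other genes, 36.2% in Gm20538, which overlaps it on the same strand and had 0 counts. The call was lost under 6 of 17 settings, namely total counts alone, GC correction with and without the replicate block, and leaving out BcorΔE9-10 library 3 or either BcorWT library (adjusted p = 0.0651 to 0.181).

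The 8 complex I assembly factors named by the rule, Ndufaf1 to Ndufaf8, are chaperones that are not part of the finished enzyme, and none passed the test. Ndufaf7, a methyltransferase of the mitochondrial matrix, had 68, 63 and 100 counts against 116 and 107 (log2 fold change -0.71, SE 0.232, limma adjusted p = 0.0624). Its groups did not overlap, 42.4% of its end words occur in other genes, and it was called with the replicate number as a block (-0.84, adjusted p = 0.0402). Ndufaf5 lay at the other end, with 22, 24 and 41 counts against 16 and 14 (log2 fold change 0.72, SE 0.49, limma adjusted p = 0.378).

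**Figure D3:**
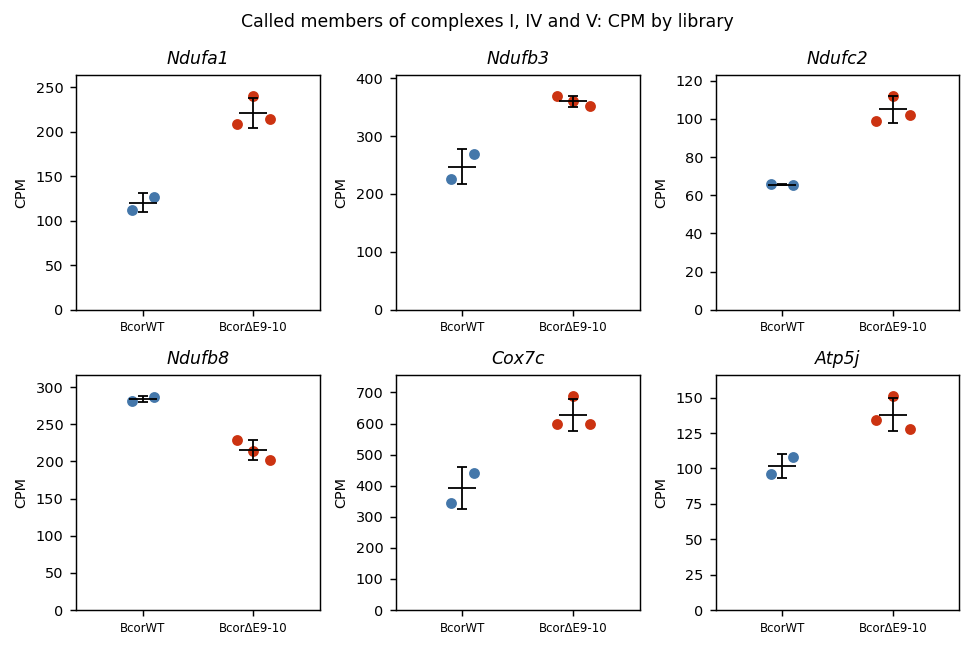
CPM (TMM-scaled) by library of the 6 called members outside complex II, BcorWT in blue (n = 2) and BcorΔE9-10 in red (n = 3), with group mean and SD in black and axes from 0. Ndufa1, Ndufb3, Ndufc2, Cox7c and Atp5j have all BcorΔE9-10 libraries above both controls, and Ndufb8 has them all below.

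Complex II passes electrons from succinate to ubiquinone through a catalytic pair, Sdha and Sdhb, that is held in the membrane by Sdhc and Sdhd. Sdhd showed the largest fold change of any member tested, on a row with few counts. It had 108, 233 and 166 counts in BcorΔE9-10 libraries 1 to 3 and 2 and 8 in BcorWT libraries 1 and 2, that is 12.8, 38.0 and 19.4 CPM against 0.284 and 1.19. All 3 BcorΔE9-10 libraries were far above both controls, while they differed among themselves by more than any other called member did relative to its mean, with an SD of 13.1 on a mean of 23.4 CPM.

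The fitted log2 fold change of Sdhd was 4.94 (SE 1.18, limma adjusted p = 0.014). Pooled over libraries, 507 counts stood against 10, a ratio of 30.2 after scaling by depth, with an exact 95% interval of 16.3 to 63.4 that covers counting error only. Both controls were under the minimum count of 10, so Sdhd passed the filter on low counts only through the group in which it was high. It was not tested when at least 10 counts were asked of every library, a setting with 5 members called higher. Dropping either control left 1 BcorWT library, assumed to vary like the other group, and the call was lost though the direction was kept (4.0, adjusted p = 0.0636, without BcorWT library 1, and 5.84, adjusted p = 0.0903, without BcorWT library 2).

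The other genes of complex II had smaller fold changes. Sdha, which binds succinate and has the most counts of the complex, had 104 ± 6.44 against 118 ± 2.40 CPM (log2 fold change -0.19, limma adjusted p = 0.343). Sdhb, the iron-sulphur subunit, had 66.3 ± 5.93 against 80.7 ± 2.70 CPM (-0.29, limma adjusted p = 0.179). Sdhc, the other anchor, had 93.9 ± 7.68 against 77.9 ± 3.16 CPM (0.26, limma adjusted p = 0.219). None of these 3 was called, and the difference between Sdhd and its partners was not tested. Whether the Sdhd row holds all reads of its transcript was not tested either, so its near-zero BcorWT values are listed counts and not levels.

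Sdhd lies at chr9:50596357-50603812 on the minus strand, no exon of another gene overlaps it, and none of the words of its transcript end occurs elsewhere. Its start faces that of Timm8b, a chaperone gene of the intermembrane space transcribed in the opposite direction. Timm8b had 499, 398 and 446 counts in BcorΔE9-10 and 341 and 397 in BcorWT, and its CPM overlapped between the groups (log2 fold change 0.12, SE 0.15, limma adjusted p = 0.649).

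**Figure D4:**
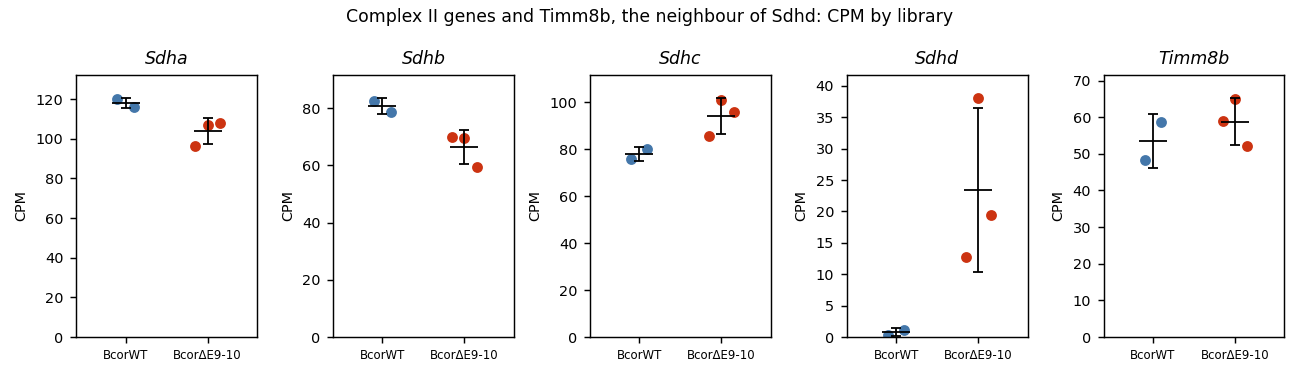
CPM (TMM-scaled) by library of the 4 genes of complex II and of Timm8b, the neighbour of Sdhd, BcorWT in blue (n = 2) and BcorΔE9-10 in red (n = 3), with group mean and SD in black and axes from 0. Sdhd is at 12.8 to 38.0 CPM in BcorΔE9-10 and at or below 1.19 CPM in BcorWT, while the fold changes of Sdha, at 104 against 118 CPM, and Timm8b, at 58.7 against 53.6 CPM, are smaller.

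Complex III (cytochrome bc1) hands electrons from ubiquinol to cytochrome c. None of its 11 members passed the test, which 10.1% of all genes passed. Their log2 fold changes ran from -0.27 to 0.36 with a median of -0.13. Uqcrh, the hinge subunit and the member with most counts, had 322 ± 9.12 against 363 ± 18.1 CPM (log2 fold change -0.17, limma adjusted p = 0.299). Uqcrfs1, the Rieske iron-sulphur protein, had 111 ± 5.65 against 87.2 ± 6.83 CPM (log2 fold change 0.34, limma adjusted p = 0.0896).

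Complex IV (cytochrome c oxidase) reduces oxygen. Of 14 members tested 1 rose and none fell (7.14% called, beside 10.1% of all genes), with a median log2 fold change of 0.01. Cox7c, a small membrane subunit (chr13:86044816-86046904), had 5076, 4216 and 5119 counts against 2437 and 2971. The groups did not overlap, at 600, 688 and 598 CPM against 346 and 440, with a change of 0.68 in log2 (SE 0.115, limma adjusted p = 0.00143).

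The Cox7c row may hold reads of other genes, in which 99.3% of the words of its end also occur. Gm10012, a pseudogene with 81.2% of them, gave a change of 0.51 in log2 (limma adjusted p = 0.00673), and Gm12338, with 56.1%, gave 0.70 (limma adjusted p = 0.0099). How the reads were split between the 3 rows is not given in the sources used here.

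Several subunits of complex IV have a ubiquitous form and a tissue-restricted form, and in KL cells the counts lay mostly on the ubiquitous ones. Cox4i1 had 188 ± 5.06 against 205 ± 2.58 CPM (log2 fold change -0.13, limma adjusted p = 0.489), whereas Cox4i2, the lung form, had no counts. Cox6a1 was at 170 ± 3.54 against 190 ± 2.42 CPM (-0.16, limma adjusted p = 0.378), and its muscle form Cox6a2 at 3 to 15 counts (-0.82, limma adjusted p = 0.505). Cox6b1 stood at 253 ± 18.8 against 247 ± 9.26 CPM (0.03, limma adjusted p = 0.894), and Cox6b2, known from testis, at 40 to 75 counts (0.42, limma adjusted p = 0.433).

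The remaining paralogs followed the same division. Cox7a2 had 264 ± 17.7 against 272 ± 9.22 CPM (log2 fold change -0.05, limma adjusted p = 0.802), and Cox7a2l, a supercomplex factor, 208 ± 15.5 against 211 ± 7.93 CPM (-0.02, limma adjusted p = 0.929). Cox8a had 385 ± 21.5 against 377 ± 1.58 CPM (0.03, limma adjusted p = 0.899), with Cox8b and Cox8c at 0. Ndufa4, now counted with complex IV, had 63.9 ± 5.30 against 47.8 ± 9.03 CPM (0.42, limma adjusted p = 0.092), and Ndufa4l2, its hypoxia-associated paralog, had none.

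Complex V uses the proton gradient to make ATP, with a catalytic F1 head and a membrane Fo part joined by a stalk. Of 17 members 1 rose and none fell (5.88% called, beside 10.1% of all genes), and the median log2 fold change was 0.03. None of the 5 F1 genes was called, with values from -0.27 to 0.23.

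Atp5j, which encodes coupling factor 6 of the stalk (chr16:84827866-84835625), had 1135, 925 and 1097 counts in BcorΔE9-10 and 677 and 730 in BcorWT. The groups did not overlap, at 134, 151 and 128 CPM against 96.1 and 108, and the log2 fold change was 0.43 (SE 0.125, limma adjusted p = 0.0397). It was called under 10 of 17 settings. The call was lost with sample quality weights (adjusted p = 0.0572), with GC correction (0.124, or 0.0829 with the replicate block), without any one BcorΔE9-10 library (0.0695 to 0.107) and without BcorWT library 1 (0.234), at log2 fold changes of 0.31 to 0.46. Gm11966, a pseudogene with 21.4% of its end words, gave -0.25 (limma adjusted p = 0.362), and Gabpa overlaps Atp5j on the other strand.

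The 3 genes for subunit c, whose proteins form the rotor ring and are identical once processed, differed in level. Atp5g3 held the most counts of complex V, with 732 ± 43.3 against 754 ± 75.9 CPM (log2 fold change -0.04, limma adjusted p = 0.834). Atp5g1 had 132 ± 13.2 against 132 ± 2.39 CPM (limma adjusted p = 0.989). Atp5g2 had 324 ± 18.9 against 260 ± 19.2 CPM without overlap (0.32, limma adjusted p = 0.0713), though 98.5% of its end words occur in other genes, and it was called with GC correction (0.40, adjusted p = 0.0317). Atp5s, a low-count gene with 25, 27 and 33 counts against 7 and 18, had the largest value among uncalled members (log2 fold change 1.12, SE 0.551, limma adjusted p = 0.216), and it passed the filter through the group where it was high.

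The base composition of the transcript ends is given as a description. The 6 called higher had a GC content of 34.0% to 41.7% over the last 300 bases (median 37.2%), Ndufb8 50.0%, and the 83 uncalled members 29.3% to 59.7% (median 45.3%), a range that includes those of the called genes. Across the 90 members the rank correlation (Spearman) between fold change and GC percentage was -0.39, and it was -0.27 across 11759 genes, given without a test because the genes share the same 5 libraries. With GC corrected, 7 members were called higher (Ndufa1, Ndufc2, Ndufb3, Sdhd, Cox7c, Atp5h and Atp5g2) and 0 lower. The part of base composition in the other differences was not tested.

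**Figure D5:**
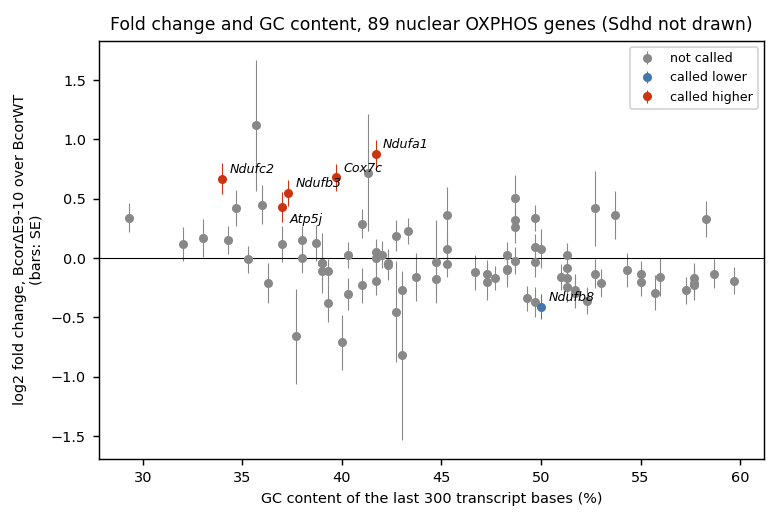
Log2 fold change (BcorΔE9-10 over BcorWT, y axis, bars SE) against the GC content (%) of the last 300 transcript bases for 89 nuclear members; Sdhd, at 4.94 and 35.7% GC, is not drawn so that the rest can be seen. The red genes called higher lie at 34.0% to 41.7% GC, and Ndufb8 in blue at 50.0%.

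The promoters of nuclear OXPHOS genes are known to carry sites for NRF1, for the ETS factor GABP and for YY1. RefSeq promoters (GRCm38.p6, 250 bases before to 50 after the start) matched 77 of the 96 nuclear members, and letters were searched on both strands. The NRF1 letters GCATGCGC were in 15.6% of these genes against 3.05% of 27025 genes in all, the ETS letters CCGGAAG in 23.4% against 9.93%, and the YY1 letters AAGATGGC in 14.3% against 3.19%. Of the 6 members called higher, 0 held the NRF1 letters, 2 the ETS and 1 the YY1 letters. Exon-free stretches before the start are shown for Sdhd, the member with the largest fold change, at chr9:50603850-50603909 on the minus strand, with the ETS letters in capitals, and for Ndufa11, an uncalled complex I gene, at chr17:56717686-56717761 on the plus strand, with 2 overlapping NRF1 matches, 1 on each strand, in capitals.
Sdhd: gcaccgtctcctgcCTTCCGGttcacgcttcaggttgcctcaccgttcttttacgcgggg
Ndufa11: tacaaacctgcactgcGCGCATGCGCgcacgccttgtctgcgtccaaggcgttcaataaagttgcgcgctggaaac
A match describes letters only. Ndufa11 had 90.9 ± 13.2 against 104 ± 8.76 CPM (log2 fold change -0.21, limma adjusted p = 0.356). Sdhd was picked for its fold change, so the 2 stretches do not compare letters with a response. A relation between the letters and the fold changes was not tested.

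Genes that work with the OXPHOS complexes were read from 8 further lists. Of 39 assembly factors outside the rule 2 rose and none fell (5.13% called, beside 10.1% of all genes, with a median log2 fold change of 0.02). These were Cox20, a chaperone of the complex IV subunit encoded by mt-Co2 (26.3 ± 1.88 against 14.3 ± 2.38 CPM, 0.89, limma adjusted p = 0.0109), and Coa6, a copper-handling factor for the same subunit (6.48 ± 0.836 against 1.54 ± 0.969 CPM, 2.16, limma adjusted p = 0.0199). Coa6 had 6 and 15 counts in the controls and passed the filter on low counts through the BcorΔE9-10 libraries, where it was high. Of 15 genes for electron carriers 6.67% were called. Etfa rose, which encodes a subunit of the flavoprotein that feeds electrons from fatty acids to ubiquinone (log2 fold change 1.35, limma adjusted p = 0.0077).

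Genes that keep and express mitochondrial DNA included 4 of 20 that rose and none that fell (20.0% called, beside 10.1% of all genes, with a median of 0.03). Ssbp1, the mitochondrial single-stranded DNA-binding protein, had 340, 349 and 328 counts against 74 and 104 (log2 fold change 1.78, SE 0.247, limma adjusted p = 0.000285). Tfam, which packages and transcribes mitochondrial DNA, had 298, 204 and 225 counts against 97 and 146 (0.86, SE 0.222, limma adjusted p = 0.0215). Both showed no overlap between the groups, as did Pnpt1, an RNA-degrading enzyme (1.89, limma adjusted p = 0.0205), and Trmt10c, a subunit of mitochondrial RNase P (2.06, limma adjusted p = 0.0319). Trmt10c, with 7 and 16 counts in the controls, also passed the filter through the group where it was high.

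Among 12 nuclear regulators tested, Myc (log2 fold change 2.26, limma adjusted p = 0.00401) and Gabpb2 (0.92, limma adjusted p = 0.00531) rose. That is 16.7% of a short list, beside 10.1% of all genes called. Of 77 mitochondrial ribosomal protein genes only Mrps28 was called (3.32, limma adjusted p = 0.00461), a share of 1.3%, and the median was -0.12. Mrps28 had 81, 115 and 108 counts against 5 and 14, and it too passed the filter through the group where it was high. In the TCA cycle, 1 of 17 rose, Fh1 (0.76, limma adjusted p = 0.0211), and 1 fell, Mdh2 (-0.40, limma adjusted p = 0.0137). The share called, 11.8%, was near that of all genes. Cytosolic ribosomal proteins, 80 genes with a median of 0.00, had Rpl17 (0.91, limma adjusted p = 9.78e-05) and Rps24 (0.38, limma adjusted p = 0.00986) higher and Rplp1 (-0.36, limma adjusted p = 0.012) lower. The share called in that list was 3.75%.

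In glycolysis, the cytosolic route to ATP, 6 of 16 genes tested were called (37.5%, beside 10.1% of all genes), 1 higher and 5 lower, and the median log2 fold change was -0.29. The 4 with the smallest adjusted p were Gpi1 (-0.43, limma adjusted p = 0.0099), Pgam1 (-0.39, limma adjusted p = 0.0168), Hk3 (0.59, limma adjusted p = 0.0171) and Pkm (-0.35, limma adjusted p = 0.0352). How the calls in this and the other related lists change under the alternative settings was not examined. With total counts alone, the genes called lower over all genes went from 481 to 197. The difference between the glycolysis and OXPHOS lists was not tested.

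Markers of some other cells differed between the genotypes. The summed CPM of erythroid, megakaryocyte, B cell and T cell markers overlapped between the groups. Of 9 neutrophil markers 5 were lower in BcorΔE9-10 (S100a8, S100a9, Ltf, Ngp and Lcn2) and none higher. That is 55.6% called, beside 10.1% of all genes. Mmp8, Cxcr2 and Retnlg were not called, nor was Camp, which lay above 0 (log2 fold change 0.25). The summed CPM of the 9 was 149000 to 173000 against 216000 to 227000, largely from S100a8 (74600 against 114000) and S100a9 (41900 against 55400). Of 9 basophil, mast cell and eosinophil markers 6 were lower and 1 higher (77.8% called), with sums of 427 to 597 against 1030 to 1320. Erythroid markers summed to 56.7 to 240 CPM against 19.5 to 59.9, and 1 of 5 tested, Car1, was higher (20.0% called). Monocyte and macrophage markers summed to 69.4 to 89.4 CPM against 109 to 110 and megakaryocyte markers to 43.2 to 67.6 against 25.6 to 44.2, with none called in either list. B cell markers summed to 4.15 to 10.1 CPM over all libraries and T cell markers to 1.42 to 3.83, with Ms4a1 at 0 throughout. Of 8 myeloid progenitor markers Kit alone was called (12.5%), and the median log2 fold change was 0.04. Of 7 proliferation genes Mki67 was lower (-0.54, limma adjusted p = 0.007) and Pcna higher (0.67, limma adjusted p = 0.00359), which is 28.6% called. The part of cell composition and proliferation in the OXPHOS values was not tested.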

How the data were processed

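Counts per gene were deposited by the authors as whole numbers without normalisation, for 5 libraries of KL cells. Per the labels, bcl2fastq 2.17.1.14, FastQC, cutadapt 1.7, HISAT2 and featureCounts (Subread 1.5.0-p3) were used with build GRCm38 (mm10). The options for strand and multi-mapping reads are not given in the sources used here, so genes with near copies and overlapping genes may hold reads of both. Gene identifiers were joined to GENCODE M21, which gave a symbol for 52403 of 52550 genes, with the same start and end for 95.24%. Depth was 5998924 to 8303999 counts.

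Genes were filtered with filterByExpr (minimum count 10, minimum total 15) of edgeR 4.0.16 and fitted with voom in limma 3.58.1 (R 4.3.3) on TMM-scaled counts, BcorΔE9-10 against BcorWT, two-sided, p-values being adjusted by Benjamini-Hochberg across the 11766 genes tested, with calls at an adjusted p under 0.05. The fit was tested on simulated data. No pairing was used, since no source ties equal replicate numbers to shared mice. No libraries were near-identical, with a chi-square per gene of 6.01 to 11.6.

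Mitochondrial rows were at 0, so their calls and median, which were planned, have no value. The members and gene lists were chosen with earlier results of these data known. Named genes were the called members, the member with most counts per complex, paralogs, the 2 highest and 2 lowest uncalled values, and up to 4 called genes per related list; other named genes were chosen after their values were seen. Alternatives were edgeR's quasi-likelihood test, DESeq2 1.42.0, other scalings and filters, quality weights, thinning, GC correction, a block for replicate number and the omission of each library in turn. The values of 1 complex I member are not reported here by name; it is counted in the totals and left out of the plot of fold changes by complex.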

Additional observations from a re-analysis of the deposited data

How the results depend on the processing

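Of 403 recomputed values of 24 named members, 356 kept their direction and side of the threshold, 16 lost the call, 7 gained one and 24 changed sign. Those kept include the values with mitochondrial genes left out of library sizes, which could not differ because those rows were at 0. The 24 belong to Atp5g1, Atp5g3, Cox4i1, Cox6b1, Cox7a2, Cox7a2l and Cox8a, which were called neither in the report nor in those settings. With total counts alone the log2 fold change was 0.14 for Atp5g1, 0.10 for Atp5g3, 0.02 for Cox4i1, 0.09 for Cox7a2 and 0.12 for Cox7a2l. Cox7a2l gave 0.05 with GC correction, 0.03 with the replicate block, 0.11 with both and 0.01 with counts drawn down, Cox7a2 gave 0.03 and Cox4i1 0.00 with both, and Atp5g1 gave 0.02 with counts drawn down and 0.00 with edgeR, without the filter and with at least 10 counts in every library. Leaving out each library gave ranges that crossed 0, from -0.15 to 0.06 for Atp5g3, -0.06 to 0.08 for Atp5g1, -0.02 to 0.07 for Cox6b1, -0.07 to 0.02 for Cox7a2l and -0.01 to 0.07 for Cox8a. The number of nuclear members called higher, 6 in the report, was 14 with total counts alone, which moved the median of all genes to 0.149 and that of the members from -0.048 to 0.096, and it split the calls over all genes into 1210 higher and 197 lower. The number called lower, 1 in the report, was 3 with the DESeq2 Wald test, 3 with DESeq2 size factors, 0 with total counts alone and 0 with GC correction. Leaving out members with 20% or more shared end words, an alternative added after seeing the data, left 3 higher and 0 lower among 66. Leaving out each library in turn gave 3 to 7 higher, 0 to 1 lower, a members' median of -0.092 to -0.005 and 558 to 1200 genes called of all, against 1189. The 558 and the 3 came without BcorWT library 1, the 0 without BcorΔE9-10 library 3 or BcorWT library 2, and totals were 774 and 723 without BcorΔE9-10 libraries 2 and 3. A fit with 1 control assumes that it varies like the other group. The causes of these changes were not tested.

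With the replicate number as a block, 1454 genes were called, with 6 members higher and 2 lower, the second being Ndufaf7; with GC correction as well, 1256 genes, 8 members higher and 1 lower. The deviations of libraries with equal numbers correlated at 0.0765 and 0.0817. With 2 BcorWT libraries these values are not independent, so they do not decide whether equal numbers mark pairs. The block adds terms to a fit of 5 libraries and leaves little to estimate the spread from. Summed mitochondrial counts were 0 in every setting, which is no check because a sum of zeros cannot change. The calls and median of the mitochondrial members could not be computed. The SE was larger for Cox6a2 (0.708 in log2) and Atp5s (0.551), which had few counts, than for Atp5g3 (0.0989). It was larger still for Sdhd (1.18), which had more counts than those 2. The part of depth in these errors was not tested.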
